A study of Mus musculus with 6 samples.

Results

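The genes described here are 35 genes of sterol and fatty acid synthesis and of the sterol regulatory element-binding protein (SREBP) system, chosen by name from the 54532 genes of the deposited table. All 35 were found. They fall into 19 genes of sterol synthesis and sterol transport, 9 of fatty acid synthesis, elongation and desaturation, and 7 that make, hold, escort or cleave the SREBPs. The study made 6 RNA-seq libraries from primary macrophages of the wild-type (WT) mouse. In 3 libraries the cells had received vehicle, and in 3 they had received rmMETRNL for 6 h, a treatment named for METRNL (meteorin-like), a secreted protein. The cells of all 6 libraries were then challenged with the yeast Candida albicans for 6 h, so both groups met the fungus and no unchallenged cells were compared. The assignment of the value columns to vehicle and rmMETRNL rests on single letters in the column names, and so does the direction of each difference below. The labels give no tissue of origin, strain, sex or age of the mice. Whether the 3 libraries of a group are separate animals or cultures is also not given. The p-values therefore reflect only the spread among these libraries, and that spread may be technical.

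SREBPs are transcription factors made as membrane proteins of the endoplasmic reticulum. When membrane sterol is scarce, the escort protein SCAP carries them to the Golgi, where the site-1 protease (Mbtps1) and the site-2 protease (Mbtps2) release the active part. When sterol is plentiful, the INSIG proteins hold SCAP and SREBP back in the endoplasmic reticulum. SREBP2 (Srebf2) is known mainly for the genes of sterol synthesis, and SREBP1 (Srebf1) for those of fatty acid synthesis. Macrophages take up cholesterol from the particles and cells they engulf, and the system is known to balance this uptake against synthesis.

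The promoter windows below are printed for Hmgcs1, an early sterol gene, and for 3 of the genes whose groups did not overlap. Known control elements of the system are marked in 3 of them, and the Acly window, shown beside them, holds GC boxes but none of the marked elements in these bases. Each is the 250 bases before a transcription start, written 5′ to 3′ along the gene, from RefSeq (GRCm38.p6). Capitals mark the CCAAT box (CCAAT or its complement), the SREBP element TCACNCCAC in Hmgcs1 and, in Srebf1, part of the LXR element. The LXR element is a direct repeat that lies here on the other strand, and the marked part was searched with any base at 1 position.
Hmgcs1, chr13:119690101-119690350, plus strand: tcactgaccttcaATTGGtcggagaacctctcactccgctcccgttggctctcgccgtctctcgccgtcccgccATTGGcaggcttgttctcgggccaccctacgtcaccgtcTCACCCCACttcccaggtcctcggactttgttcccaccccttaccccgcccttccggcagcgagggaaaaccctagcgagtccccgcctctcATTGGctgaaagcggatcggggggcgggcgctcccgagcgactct
Msmo1, chr8:64733579-64733828, minus strand: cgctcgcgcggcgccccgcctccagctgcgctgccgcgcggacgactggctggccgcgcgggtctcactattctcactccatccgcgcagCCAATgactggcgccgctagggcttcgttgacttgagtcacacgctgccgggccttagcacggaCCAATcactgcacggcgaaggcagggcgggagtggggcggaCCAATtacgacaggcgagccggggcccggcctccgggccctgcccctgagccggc
Acly, chr11:100528001-100528250, minus strand: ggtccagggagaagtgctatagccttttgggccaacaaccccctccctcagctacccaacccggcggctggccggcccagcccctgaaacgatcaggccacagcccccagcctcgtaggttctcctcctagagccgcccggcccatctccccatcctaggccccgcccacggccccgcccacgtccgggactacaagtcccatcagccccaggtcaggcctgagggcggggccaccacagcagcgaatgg
Srebf1, chr11:60210472-60210721, minus strand: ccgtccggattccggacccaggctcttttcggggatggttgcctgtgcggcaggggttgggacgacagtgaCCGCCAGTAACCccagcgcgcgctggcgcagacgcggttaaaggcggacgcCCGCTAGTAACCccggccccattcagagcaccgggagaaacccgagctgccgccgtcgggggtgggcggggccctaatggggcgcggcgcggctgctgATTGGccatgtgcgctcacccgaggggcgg

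Windows of 300 bases, 250 before to 50 after a start, were matched by symbol for 28 of the 35 genes and were searched on both strands. No window was matched for Fads1, Fdft1, Fdps, Scd1, Scd2, Sqle and Stard4. The sterol genes with a window include Acat2, Hsd17b7 and Tm7sf2, which were too low to be tested below. The CCAAT box, a site of the factor NF-Y that works with SREBP at many sterol promoters, was found in 14 of 15 sterol genes, 3 of 6 fatty acid genes and 4 of 7 SREBP-processing genes. Of all 32851 windows 37.4% held it, and 41.9% of the 6955 tested genes with a window did. In Acly the CCAAT box did not lie within the 250 bases printed above. The GC box GGGCGG was found in 14 of 15, 3 of 6 and 6 of 7, against 70.7% of tested genes. The SREBP element TCACNCCAC was found in Hmgcs1 alone among the 28, against 1.39% of tested genes, and its core CACNCCA, which it contains, in 6 of the 28 (Acat2, Hmgcs1, Insig1, Insig2, Msmo1 and Srebf2), against 20.1%. The E-box CACGTG was found in 5 of the 28, against 13.03%. The marked part of the LXR element lay at 2 places in the printed Srebf1 window and in 2 of 32851 windows overall. Its letters are those of the 2 Srebf1 places, with any base where they differ. The count therefore does not measure how common LXR sites are. LXR is the nuclear receptor for oxysterols, and this window is known as the promoter of the SREBP-1c form. The table gives 1 value per gene and does not separate SREBP-1c from SREBP-1a. A match is a description of letters in these windows, not a measured site. Sites with other letters were not searched for, so a window without a match may still hold one.

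The libraries held 13235001 to 18145733 reads (or read pairs) recovered from the FPKM values. FPKM scales fragments by gene length and library size, and levels of different genes are compared on it below. The deposited gene length departs unevenly from that of the main transcript (6144 against 2044 bases for Msmo1, 1859 against 1756 for Mvd). Rankings between genes, and which genes reach 1 FPKM, rest in part on that length. All 10 macrophage markers checked had a mean above 1 FPKM, with Lyz2 highest at 5514 FPKM and Fcgr1 lowest at 1.28 FPKM. Of these 10, 3 lay wholly above and 3 wholly below the vehicle range, against 10.9% and 10.6% of all genes tested, and their summed level was 9637 to 10183 FPKM after vehicle and 9408 to 9693 FPKM after rmMETRNL. Cd14 was lower, at 2647 ± 62.02 and 2298 ± 53.4 FPKM (mean ± SD, n = 3, adjusted p = 0.189 in limma and 0.0468 in voom), and the part of these markers in the results below was not tested. The extraction text of the labels speaks of retinas, but 0 of 10 retina markers reached a mean of 1 FPKM, with Crx and Rpe65 at 0 in all libraries and Pde6b highest at 0.436 FPKM. Markers of hepatocytes and adipocytes, cells of high sterol and fatty acid synthesis, summed to at most 0.274 FPKM in any library, and 5 of 8 were at 0 throughout. Neutrophil markers summed to 112 to 119 FPKM after vehicle and 123 to 131 with rmMETRNL, led by S100a8 (84.9 FPKM). S100a9 stood at 23.5, 24.8 and 24.9 FPKM after vehicle and 30.7, 37.1 and 36.6 FPKM after rmMETRNL. Its groups did not overlap, and its difference, 1.42-fold, was larger than that of any tested member (adjusted p = 0.151 in limma and 0.0579 in voom). Retnlg overlapped, at 6.58 ± 1.31 and 6.49 ± 0.654 FPKM. The other 5 of the 8 neutrophil markers had means under 1 FPKM, with Ly6g at 0.290 FPKM and Elane, a gene of neutrophil precursors, at 0. The part of these cells in the results below was not tested. Mast cell markers summed to 9.97 to 16.3 and 12.997 to 16.5 FPKM, led by Tpsb2 (6.85 FPKM). Dendritic cell markers summed to 28.3 to 30.95 and 27.97 to 30.5 FPKM. Nearly all of that was Ccr7 (27.95 FPKM), and the other 5 dendritic cell markers had means under 1 FPKM. T, B and NK cell markers summed to at most 4.69 FPKM, led by Cd79a (2.67 FPKM), and fibroblast and mesothelial markers to at most 11.1, led by Dcn (4.29 FPKM). In bulk RNA, fewer cells of a type and less RNA per cell cannot be told apart.

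The comparison asks whether rmMETRNL, given before the fungus, left these genes at another level than vehicle did. No member passed the test. Of the tested members whose groups did not overlap, Srebf1, Scap and Lss were lower with rmMETRNL. Stard4, Msmo1, Scd2 and Acly were higher, by 1.13-fold to 1.29-fold. The mean of Idi1 was also 1.29-fold higher, but its groups overlapped. Srebf2, Insig1 and most enzymes of the sterol pathway showed values that overlapped between the groups. Limma on log2(FPKM + 1), a scale that understates changes of low genes, called 0 of the 27 members that reached a mean of 1 FPKM at an adjusted p of 0.05, against 0% of all 9867 genes tested (0 genes, lowest adjusted p = 0.103). Limma voom on the recovered reads called 0 of the 27 members, against 0.618% of all genes (61 genes). An unadjusted p under 0.05 was reached by 6 of the 27 (22.2%), against 14.7% of all genes (1448). Non-overlapping groups, with all 3 values on 1 side of the other 3, were seen in 7 of the 27 members (25.9%), against 21.5% of all genes. Of these, 4 were higher with rmMETRNL, against 10.9% of all genes, and 3 were lower, against 10.6%. The log2 difference, here and below the mean of log2(FPKM + 1) with rmMETRNL minus that with vehicle, had a median of 0.00 over the 27 and of -0.01 over all tested genes.

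**Figure D1:**
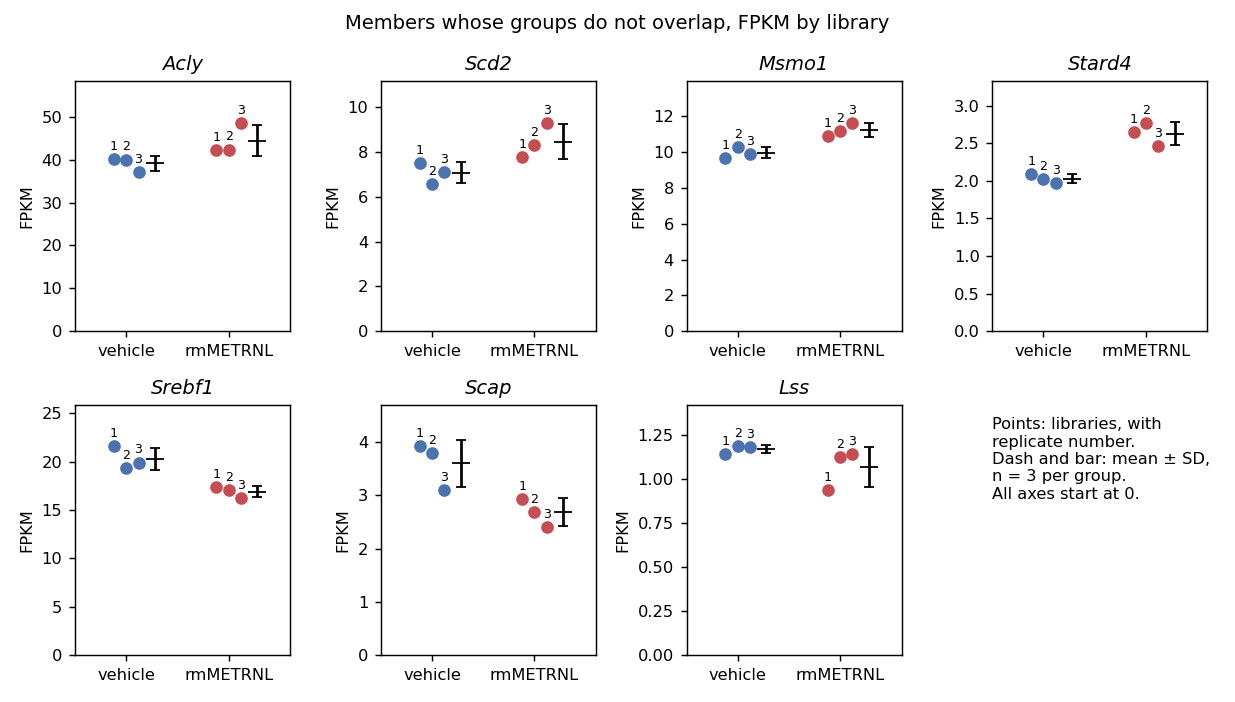
FPKM in each library (points, numbered by replicate) for the 7 tested members whose groups did not overlap, with mean ± SD (n = 3) beside them and every axis from 0. Acly, Scd2, Msmo1 and Stard4 were higher in all 3 rmMETRNL libraries, and Srebf1, Scap and Lss were lower, Lss by the narrowest gap.

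Among the regulators, both SREBP genes were well expressed. Srebf2 (ENSMUSG00000022463, chromosome 15, 82147181 to 82205379, GRCm38) stood at 31.4, 30.9 and 30.0 FPKM in vehicle libraries 1, 2 and 3 and at 31.8, 28.7 and 30.3 FPKM in rmMETRNL libraries 1, 2 and 3. The groups overlapped, with the highest value in rmMETRNL library 1 and the lowest in rmMETRNL library 2. Its log2 difference was -0.02 (± 0.05 SE, 95% interval -0.15 to 0.10, adjusted p = 0.87 in limma). Srebf1 (ENSMUSG00000020538, chromosome 11, 60199089 to 60222581) stood at 21.6, 19.3 and 19.9 FPKM after vehicle and at 17.4, 17.04 and 16.2 FPKM after rmMETRNL. All 3 rmMETRNL values lay below the lowest vehicle value. The means were 20.3 ± 1.17 and 16.9 ± 0.585 FPKM (mean ± SD, n = 3), a log2 difference of -0.25 (± 0.06 SE, 95% interval -0.39 to -0.11). This was the smallest p among the members, with an adjusted p of 0.219 in limma and 0.0629 in voom.

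The ratio of Srebf1 to Srebf2 within a library does not depend on how libraries are scaled. It was 0.686, 0.626 and 0.663 in vehicle libraries 1 to 3 and 0.547, 0.593 and 0.536 in rmMETRNL libraries 1 to 3. The groups did not overlap (exact permutation test, two-sided, p = 0.1, the smallest that 3 libraries against 3 allow). The ratio was chosen after the values were seen. As Srebf2 was close between the groups, this separation is not independent of that of Srebf1.

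Scap, the escort of both SREBPs (ENSMUSG00000032485, chromosome 9, 110333288 to 110384950), stood at 3.92, 3.79 and 3.09 FPKM after vehicle and at 2.94, 2.69 and 2.41 FPKM after rmMETRNL. The groups did not overlap, with vehicle library 3 closest to the rmMETRNL range. The means were 3.60 ± 0.445 and 2.68 ± 0.265 FPKM, a log2 difference of -0.32 (± 0.10 SE, adjusted p = 0.26), the largest in size among the tested members. Between 266 and 442 reads lay behind each value. An annotated gene on the other strand, 5830462I19Rik at a mean of 0.0599 FPKM, overlaps 18.6% of the exon bases of Scap, and without a stated strand setting their reads cannot be told apart.

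The retention genes stayed close between the groups. Insig1, which is also a target of SREBP2, stood at 28.7, 30.5 and 27.9 FPKM after vehicle and 30.7, 27.3 and 29.1 FPKM after rmMETRNL. Its log2 difference was 0.00 (± 0.06 SE, 95% interval -0.14 to 0.14). Insig2 stood at 12.7, 13.7 and 14.04 FPKM after vehicle and 13.2, 15.3 and 15.3 FPKM after rmMETRNL, a log2 difference of 0.10 (± 0.07 SE, adjusted p = 0.564). Insig1 was 2.15 ± 0.147 times as abundant as Insig2 with vehicle and 2.01 ± 0.289 times with rmMETRNL (exact permutation test, two-sided, p = 0.5). The protease genes were low, and their groups overlapped. Mbtps1 had 3.60 ± 0.242 FPKM after vehicle and 3.33 ± 0.173 FPKM after rmMETRNL. Mbtps2 had 2.56 ± 0.161 and 2.75 ± 0.133 FPKM, and 73.7% of the exon bases of its main transcript are also annotated to Yy2, listed at 0 FPKM. Of the 7 SREBP-processing genes, 0 were called, 0 lay wholly above and 2 wholly below the vehicle range (against 10.9% and 10.6% of all genes), and the median log2 difference was -0.02.

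**Figure D2:**
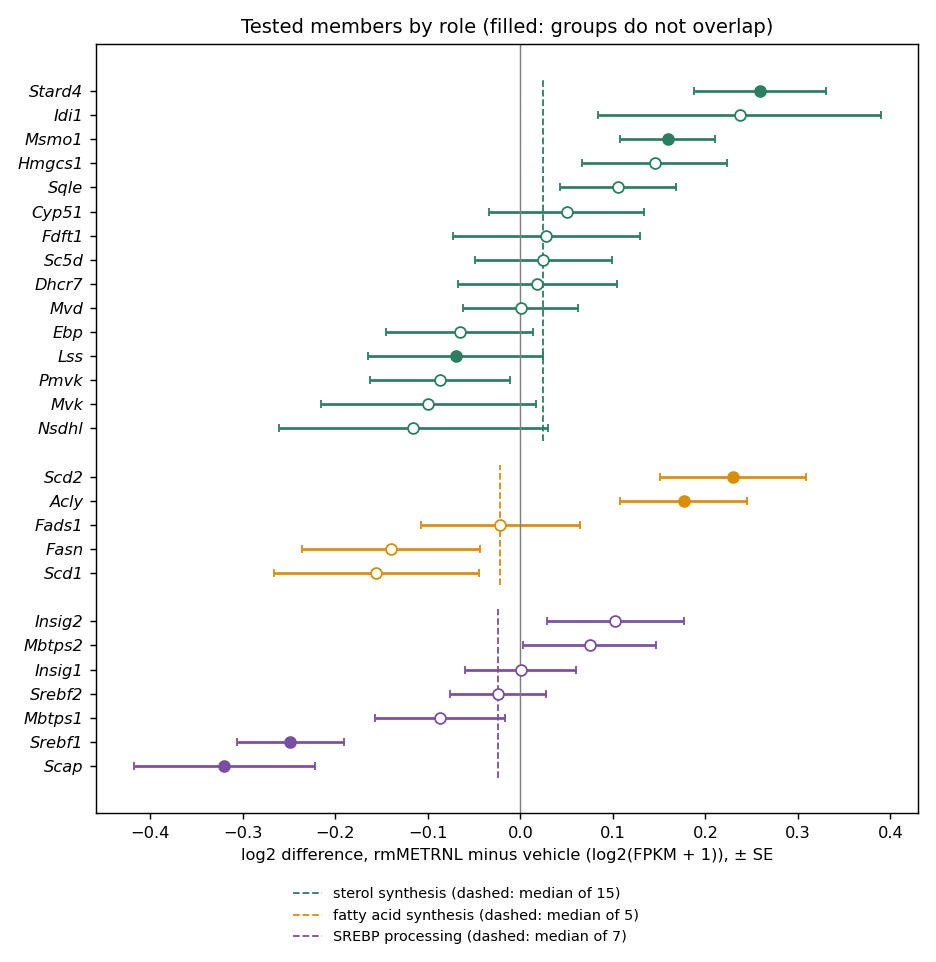
Log2 difference (mean log2(FPKM + 1), rmMETRNL minus vehicle) with its SE for the 27 tested members, grouped by role, with filled points where the groups do not overlap and a dashed line at each role's median. The medians of the 3 roles lie within 0.05 of each other, while single genes run from -0.32 for Scap to 0.26 for Stard4.

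Along the sterol pathway the level of the enzymes differed widely. Mvd, which makes isopentenyl diphosphate, had the highest FPKM, at a mean of 17.9 FPKM over the 6 libraries, on the deposited gene lengths. Msmo1, an oxidase that removes methyl groups from sterol intermediates, had 10.6 FPKM, Sqle, the squalene epoxidase gene, 10.5 FPKM and Ebp, a sterol isomerase gene, 9.13 FPKM. On those lengths Mvd differed from these beyond the spread of the libraries, while Msmo1 and Sqle overlapped. Msmo1 had 845 to 1110 reads per library on 6144 bases and Sqle 711 to 991 on 5546, against 423 to 604 on 1859 for Mvd. Their main transcripts have 2044, 2758 and 1756 bases. The rank of Mvd above Msmo1 and Sqle therefore rests on the deposited lengths. Cyp51, the lanosterol demethylase gene, had 6.99 FPKM, Pmvk, the phosphomevalonate kinase gene, 6.27, Sc5d, a sterol desaturase gene, 5.24, Hmgcs1, the cytosolic HMG-CoA synthase gene, 5.11 and Fdft1, the squalene synthase gene, 4.02. Dhcr7, which completes cholesterol synthesis, had 2.75 FPKM, the sterol transfer gene Stard4 2.33 and Nsdhl, a sterol dehydrogenase gene, 2.03. The isomerase gene Idi1 had 1.66 FPKM, the mevalonate kinase gene Mvk 1.253 and Lss, which closes the sterol rings, 1.12. Neighbours in this order often overlapped between libraries. Of the sterol genes, 4 were under a mean of 1 FPKM and were not tested: Acat2 (0.783 FPKM), Hsd17b7 (0.682), Tm7sf2 (0.617) and Fdps (0.066).

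**Figure D3:**
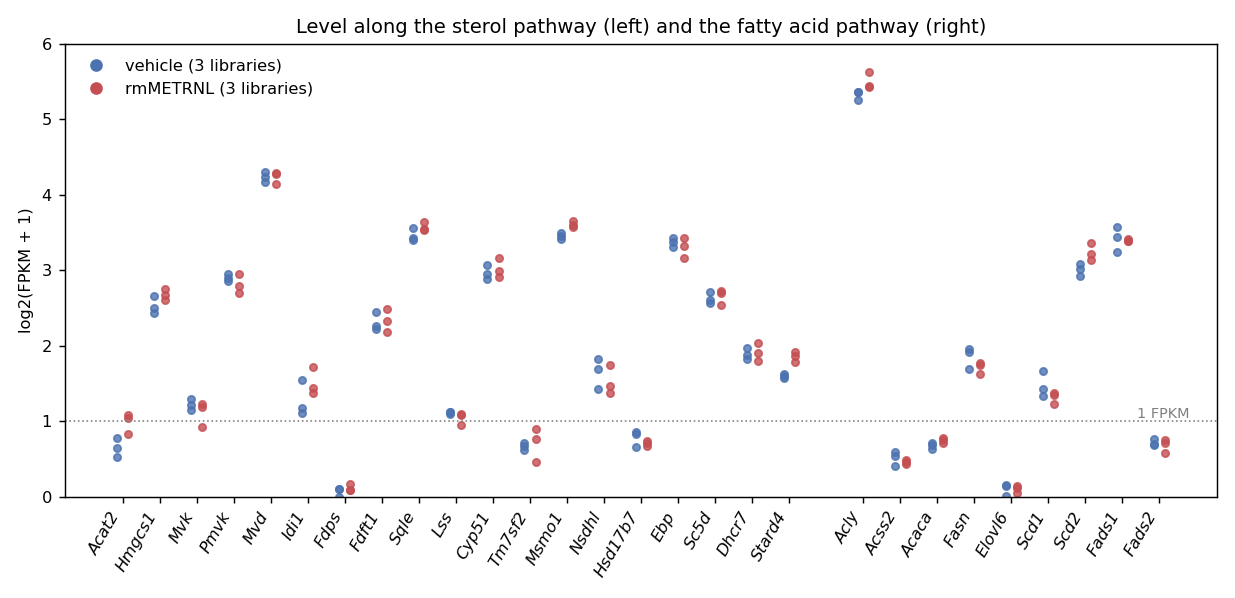
log2(FPKM + 1) in each library for the 19 sterol genes in pathway order (Stard4 last) and the 9 fatty acid genes, with vehicle in blue and rmMETRNL in red. On the deposited gene lengths, Mvd and Acly stand highest in their pathways and 8 genes lie under the dotted line at 1 FPKM on average. Fdps and Elovl6 lie near 0.

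Several of these levels depend on how reads were assigned between copies, which is not given in the sources used here. Fdps, the farnesyl diphosphate synthase gene between Idi1 and Fdft1 in the pathway, had 0 to 8 reads per library. Of the exon bases of its main transcript, 81.3% are also annotated to Gm43738, a gene model on the same strand with a mean of 0.00426 FPKM, and 89.7% of its 31-base words occur in another annotated gene. Its FPKM is therefore uncertain as a level. Acat2, which starts the pathway by joining acetyl-CoA units, shares 50.5% of its words with its neighbour Acat3 (mean 0.102 FPKM), and Acaca shares 56.8% with the processed pseudogene Gm5182, itself listed at a mean of 0.557 FPKM. Fdft1 shares 20.9% of its exon bases with Ctsb on the other strand, which stood at 1351 FPKM. Idi1 shares 32% of its words with other genes, and an antisense model covers 16.1% of the exon bases of Hmgcs1. In all, 8 of the 35 genes shared over 10% of their words and 7 over 10% of their exon bases.

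The sterol genes showed no common direction. Of 15 tested members, 10 had a positive and 5 a negative log2 difference, 0 were called, 2 lay wholly above the vehicle range and 1 wholly below it (against 10.9% and 10.6% of all genes), and the median was 0.02. Stard4, which carries cholesterol between membranes (ENSMUSG00000024378), stood at 2.09, 2.02 and 1.98 FPKM after vehicle and at 2.65, 2.77 and 2.46 FPKM after rmMETRNL. All 3 rmMETRNL values lay above all 3 vehicle values. The means were 2.03 ± 0.058 and 2.63 ± 0.156 FPKM, a log2 difference of 0.26 (± 0.07 SE, adjusted p = 0.24 in limma and 0.144 in voom). Msmo1 (ENSMUSG00000031604, chromosome 8, 64718139 to 64733792), whose promoter is printed above with its 3 CCAAT boxes, stood at 9.69, 10.3 and 9.92 FPKM after vehicle and at 10.9, 11.2 and 11.6 FPKM after rmMETRNL. The groups did not overlap, and the log2 difference was 0.16 (± 0.05 SE, adjusted p = 0.274). Lss stood at 1.144, 1.186 and 1.181 FPKM after vehicle and 0.936, 1.128 and 1.144 FPKM after rmMETRNL. Its groups were separated by less than the last digit shown, rmMETRNL library 1 stood lowest, and the log2 difference was -0.07 (± 0.09 SE, adjusted p = 0.777).

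The other abundant sterol genes overlapped between the groups. Mvd stood at 18.7, 17.02 and 17.8 FPKM after vehicle and 18.5, 18.4 and 16.6 FPKM after rmMETRNL, a log2 difference of 0.00 (± 0.06 SE, 95% interval -0.15 to 0.15). Sqle, a rate-limiting enzyme of the later pathway, stood at 10.8, 9.59 and 9.81 FPKM after vehicle and 10.6, 10.6 and 11.5 FPKM after rmMETRNL. Its log2 difference was 0.11 (± 0.06 SE, adjusted p = 0.484), and vehicle library 1 lay within the rmMETRNL range. Idi1 had the second largest log2 difference of the tested sterol genes and the widest spread. It stood at 1.26, 1.15 and 1.93 FPKM after vehicle and 2.29, 1.73 and 1.597 FPKM after rmMETRNL, a log2 difference of 0.24 (± 0.15 SE, adjusted p = 0.516). Hmgcs1, whose promoter holds the SREBP element, had 4.81 ± 0.458 FPKM after vehicle and 5.42 ± 0.344 FPKM after rmMETRNL (log2 difference 0.15 ± 0.08 SE, adjusted p = 0.447). The remaining 8 tested sterol genes had log2 differences from -0.12 (Nsdhl) to 0.05 (Cyp51), each with overlapping groups.

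Acat2 was not tested because of its low mean, but its groups did not overlap. It stood at 0.571, 0.441 and 0.712 FPKM after vehicle and 0.784, 1.13 and 1.06 FPKM after rmMETRNL, resting on 15 to 33 and 31 to 45 reads. Tm7sf2 and Hsd17b7 overlapped between the groups.

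In the fatty acid group, Acly led by far. It encodes ATP citrate lyase, which turns exported mitochondrial citrate into the acetyl-CoA used for both sterols and fatty acids (ENSMUSG00000020917, chromosome 11, 100476353 to 100528000). Acly stood at 40.2, 40.0 and 37.2 FPKM after vehicle and at 42.3, 42.4 and 48.6 FPKM after rmMETRNL, the highest level of all 35 genes. All rmMETRNL values lay above the vehicle values, and rmMETRNL library 3 stood apart from the other two. The means were 39.1 ± 1.71 and 44.4 ± 3.64 FPKM, a log2 difference of 0.18 (± 0.07 SE, adjusted p = 0.322). Acss2, which makes acetyl-CoA from acetate, had a mean of only 0.402 FPKM.

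The enzymes that build the chain were low. Fasn, the fatty acid synthase gene, stood at 2.77, 2.87 and 2.22 FPKM after vehicle and 2.41, 2.08 and 2.35 FPKM after rmMETRNL, and vehicle library 3 lay within the rmMETRNL range (log2 difference -0.14 ± 0.10 SE, adjusted p = 0.549). Acaca, the acetyl-CoA carboxylase gene that commits acetyl-CoA to fatty acids, stood at 0.549, 0.635 and 0.611 FPKM after vehicle and 0.712, 0.638 and 0.683 FPKM after rmMETRNL. Its groups did not overlap, but it was under 1 FPKM and not tested. The elongase gene Elovl6 was at a mean of 0.0728 FPKM, with 1 to 13 reads per library.

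The desaturases differed among themselves. Scd2 (ENSMUSG00000025203, chromosome 19, 44293676 to 44306864), a stearoyl-CoA desaturase gene, stood at 7.50, 6.57 and 7.10 FPKM after vehicle and at 7.77, 8.31 and 9.30 FPKM after rmMETRNL. The groups did not overlap, and the log2 difference was 0.23 (± 0.08 SE, adjusted p = 0.287). Its neighbour Scd1, which encodes the same activity, stood at 1.53, 2.17 and 1.68 FPKM after vehicle and 1.596, 1.54 and 1.35 FPKM after rmMETRNL. Those groups overlapped, and the log2 difference was -0.16 (± 0.11 SE, adjusted p = 0.561). The ratio of Scd2 to Scd1 was 4.91, 3.03 and 4.22 with vehicle and 4.87, 5.39 and 6.88 with rmMETRNL, which overlap (exact permutation test, two-sided, p = 0.2). Scd1 shares 8.3% and Scd2 6.86% of their words with other genes. Fads1, the delta-5 desaturase gene of polyunsaturated fatty acids, stood at 10.9, 9.89 and 8.49 FPKM after vehicle and 9.49, 9.51 and 9.64 FPKM after rmMETRNL, a log2 difference of -0.02 (± 0.09 SE). Fads2 was at a mean of 0.622 FPKM.

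Compared by role, the tested sterol genes (median 0.02 of 15), fatty acid genes (-0.02 of 5) and SREBP-processing genes (-0.02 of 7) had medians close to that of all tested genes. The difference between the sterol and the fatty acid median was 0.05. Of the 5 tested fatty acid genes, 0 were called, 2 lay wholly above the vehicle range (40%, against 10.9% of all genes) and 0 below (against 10.6%). The median level of the sterol genes relative to the vehicle mean was 0.03, -0.02 and -0.01 in vehicle libraries 1 to 3 and 0.06, 0.07 and -0.02 in rmMETRNL libraries 1 to 3, so the groups overlapped. The fatty acid genes had 0.06, 0.03 and -0.07 against -0.03, -0.03 and -0.01, which also overlap. The SREBP-processing genes had 0.03, 0.01 and -0.02 against -0.03, -0.10 and -0.02, with vehicle library 3 below rmMETRNL library 3. A stricter minimum of 5 FPKM left Acly, Scd2 and Fads1 as the fatty acid genes, whose median was then 0.18, with a difference of -0.14 from the sterol genes.

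**Figure D4:**
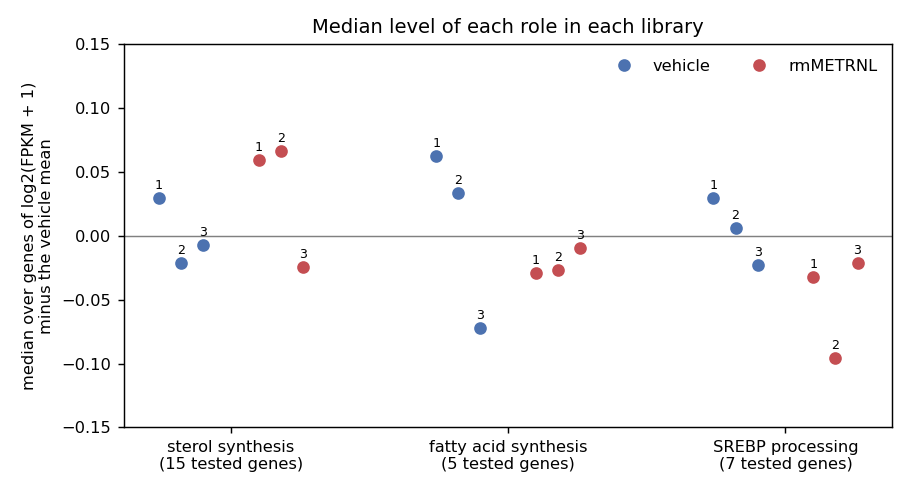
Median over the tested genes of each role of log2(FPKM + 1) minus the gene's vehicle mean, in each library (points, numbered by replicate). The ranges of the groups overlap in all 3 roles, and all values lie between -0.10 and 0.07.

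Genes around the pathway were taken from 4 lists of 63 genes in all, 52 of which were tested. Of these 0 were called, 8 lay wholly above and 6 wholly below the vehicle range (26.9% together, against 21.5% of all genes), and the median was 0.03. In the list of SREBP and Insig turnover and transport genes (17 tested, median -0.01) 1 lay above and 1 below, against 10.9% and 10.6% of all genes. Rnf145, which encodes a sterol-regulated ubiquitin ligase of the endoplasmic reticulum, stood at 4.37, 4.19 and 4.10 FPKM after vehicle and 5.89, 5.13 and 5.42 FPKM after rmMETRNL (log2 difference 0.31 ± 0.07 SE, adjusted p = 0.189). This was the smallest p of the 63 genes. Pgrmc1 stood at 22.9 ± 0.511 and 20.7 ± 1.95 FPKM.

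Of the list for oxysterols and cholesterol esters, 5 genes were tested and 0 were called. All 5 had a positive log2 difference (0.11 to 0.22, median 0.13), as did 4771 of all 9867 genes, and 2 of the 5 lay wholly above the vehicle range, against 10.9% of all genes. Soat1, the main macrophage enzyme that stores cholesterol as esters, stood at 65.4, 67.9 and 68.6 FPKM after vehicle and 70.6, 74.8 and 75.3 FPKM after rmMETRNL (log2 difference 0.13 ± 0.05 SE, adjusted p = 0.3). Lipa, the lysosomal acid lipase gene that frees cholesterol from esters, had 124 ± 3.44 and 133 ± 5.82 FPKM. Ch25h, which makes 25-hydroxycholesterol, an oxysterol that holds SREBPs back, was low and overlapped. It stood at 1.61, 1.22 and 1.10 FPKM after vehicle and 1.38, 2.22 and 1.498 FPKM after rmMETRNL.

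Of 13 tested genes in the list of other sterol and isoprenoid genes, 5 had a positive log2 difference (median -0.05), 0 were called, and 1 lay wholly above and 4 wholly below the vehicle range, against 10.9% and 10.6% of all genes. The higher one was Osbp, an oxysterol-binding transport gene, with 10.5 ± 0.881 and 11.8 ± 0.111 FPKM. The lower ones were Npc2, which carries cholesterol out of lysosomes (188 ± 8.01 and 170 ± 10.7 FPKM), Dhdds (9.06 ± 0.491 and 8.10 ± 0.297 FPKM) and Nus1 (51.6 ± 1.81 and 49.1 ± 1.22 FPKM), the subunits of the dolichol-making enzyme, and the mitochondrial thiolase gene Acat1 (2.32 ± 0.327 and 1.69 ± 0.381 FPKM).

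In the list of other fatty acid and glycerolipid genes, 17 were tested and 0 were called. Of the 17, 12 had a positive log2 difference (median 0.07), and 4 lay wholly above and 1 wholly below the vehicle range, against 10.9% and 10.6% of all genes. Mid1ip1, which encodes an activator of acetyl-CoA carboxylase, stood at 18.4, 17.6 and 16.9 FPKM after vehicle and 21.5, 20.4 and 19.2 FPKM after rmMETRNL (log2 difference 0.20 ± 0.06 SE, adjusted p = 0.254). The acyl-CoA synthetase gene Acsl1 had 4.21 ± 0.285 and 5.11 ± 0.733 FPKM, the elongase gene Elovl1 23.2 ± 0.218 and 25.7 ± 2.11 FPKM and the phosphatidate phosphatase gene Lpin1 1.65 ± 0.179 and 1.95 ± 0.0722 FPKM. Slc25a1, which exports the citrate that Acly cleaves, was the lower one. It stood at 29.2, 32.7 and 30.8 FPKM after vehicle and 27.7, 26.9 and 28.9 FPKM after rmMETRNL (log2 difference -0.15 ± 0.06 SE, adjusted p = 0.32), while Acly lay above its vehicle range in the same libraries.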

How the data were processed

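The deposited table gives 1 FPKM value per gene and library, with gene lengths and coordinates. The genome builds were GRCm38 and mm10, per the submitters' processing notes. Aligner, counter, versions and strand setting: not given in the sources used here. The authors scaled the FPKM values by gene length and library size. Reads per gene were recovered from FPKM and gene length: within each library the products fell on whole numbers of reads (within 0.05 reads) for 100% of values, and 10 reads on a gene of 1 kb correspond to 0.549 to 0.748 FPKM. That number of reads limits the precision of low genes.

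The 9867 genes averaging 1 FPKM or more entered a two-sided limma test (version 3.58.1, R 4.3.3) of log2(FPKM + 1), fitted with a variance trend, and p-values were adjusted by Benjamini-Hochberg over all of them. Values are mean ± SD over 3 libraries, SE and 95% intervals come from limma, and list medians are descriptions. Members and lists were chosen with earlier results of these data known. Named members are those whose groups do not overlap, the 3 most abundant and the 2 with the largest fold change of each role. Hmgcs1, Scd1, Fasn, Insig2, Acat2 and Acaca were added for their place in the pathway after their values were seen, as were the ratios within a library and the promoter motifs. Shared 31-base words and exon overlaps were counted in GENCODE M21, on the longest principal transcript of each gene.

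Alternatives were a pseudocount of 0.1, no filter or a minimum of 5 FPKM, TPM, median-of-ratios and quantile scaling, limma without the trend, correction of every library for gene length, limma voom on the recovered reads, the replicate number as a block, and leaving out each library. On simulated data for this comparison (9766 genes), limma detected 30.0% of the genes given a 1.25-fold change and 72.9% of those given a 1.5-fold change. It called 0.0313% of the unchanged genes. The simulated spread came from log2(FPKM + 1), which can understate that of low genes, and other genes were given changes of up to 4-fold. The rates may therefore be too high for the real libraries.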

Additional observations from a re-analysis of the deposited data

How the results depend on the processing

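No setting called a member, and the count over all genes was 0 except with limma voom (61) and with no filter (5 genes, all higher, none of them a member). The signs of Srebf1, Scap, Stard4, Msmo1, Acly and Scd2 held in every setting in which they were tested. As their groups do not overlap, leaving out a library or changing the pseudocount, filter, trend or block could not reverse them. Only scaling, length correction and voom could have done so. Adjusted p-values in limma and voom were 0.0629 to 0.408 for Srebf1, 0.108 to 0.485 for Scap and 0.144 to 0.435 for Stard4. They were 0.204 to 0.479 for Msmo1, 0.214 to 0.556 for Acly and 0.175 to 0.509 for Scd2. These 6 genes kept separate groups with TPM, quantile scaling and removal of the length trend, and Lss did not.

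With a minimum of 5 FPKM, 4 members had groups that did not overlap, and the fatty acid median was 0.18 (difference -0.14). Leaving out each library in turn gave 7 to 12 members without overlap, the 12 without vehicle library 3, where fewer libraries also raise the share of all genes (29.6% to 33.9%). The sterol median then ran from -0.0093 to 0.0713, the fatty acid median from -0.1092 to 0.0534, the SREBP-processing median from -0.0586 to 0.0115, and their difference (sterol minus fatty acid) from 0.0068 to 0.1015. Without rmMETRNL library 3, whose deviation had the strongest correlation across genes with gene length (0.203, the other 5 between -0.140 and 0.0534), the sterol median was 0.07.

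Genes near 0 changed sign. Insig1 was -0.0068 with voom, -0.002 with quantile scaling and -0.0399 to 0.0414 when a library was left out. Mvd was -0.0097 with voom and -0.0316 to 0.0472 when a library was left out. Srebf2 ran from -0.0586 to 0.0115 and Fads1 from -0.1092 to 0.0534 when a library was left out. Counting Insig1 with the sterol genes gave medians of 0.02 (sterol) and -0.06 (SREBP-processing). With the replicate number as a block, 0 genes were called and the lowest adjusted p was 0.221. Same-numbered libraries did not deviate together (correlations across genes of -0.021, 0.007 and -0.045), so the numbers are not taken as pairs. Depth limits the genes under 1 FPKM most, above all Fdps, Elovl6, Fads2 (11 to 17 reads per library) and Acat2.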
